A study of Mus musculus with 6 samples.

Results

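The 10 genes described here encode G protein-coupled receptors that steer leukocyte movement: the chemokine receptors Cxcr3, Cxcr4, Cxcr5, Ccr2, Ccr6, Ccr7 and Ccr9, and the sphingosine 1-phosphate (S1P) receptors S1pr1, S1pr3 and S1pr4. They were chosen by gene symbol, and each matched 1 row among the 23793 rows of the deposited expression table. Messenger RNA had been sequenced from i660BM cells, a line of cultured pro-B cells from C57BL/6 mice that is grown with interleukin 7. The first group held 3 libraries from induced cells, in which a doxycycline-inducible system had driven PU.1 (gene symbol Spi1) for 48 h with 70 ng/ml doxycycline. The second held 3 libraries from non-induced cells of the same line, which carry the same inducible system and were given no induction. Both groups are 1 cell line, and no library had the drug without the factor, so effects of doxycycline and of PU.1 cannot be told apart.

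Chemokine receptors sense gradients of chemokines, small secreted proteins, and signal mainly through inhibitory G proteins to the actin cytoskeleton and to integrins. S1P receptors sense a lipid that is abundant in blood and lymph and scarce inside tissues, and they act in the exit of lymphocytes from lymphoid organs. In bone marrow, CXCL12 made by stromal cells holds B cell precursors through CXCR4, whereas CXCR5 and CCR7 are known for placing mature B cells in follicles and at the edge of the T cell zone. PU.1 is an ETS family transcription factor of myeloid and B cells whose purine-rich binding sites centre on the bases GGAA.

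The deposited table held 1 FPKM value per gene and group, that is, fragments scaled by transcript length and by sequencing depth. Values per library were not used here, so no spread between libraries can be given for a level. The authors' own Cuffdiff test compared the groups. A gene is said to have risen or fallen in induced cells where that test had been run and its q-value was under 0.05. The implied standard error (SE) quoted with a log2 change is that change divided by the deposited test statistic. It reads the statistic as change over error, a relation the table does not state. As a check of the labels, Spi1 stood at 246 FPKM in induced and 36.0 FPKM in non-induced cells, per the authors' deposited table. The B lineage marker Cd79a was high, at 646 FPKM in induced and 596 FPKM in non-induced cells, per the authors' deposited table. Low values lay on steps that put the depth at about 122000000 fragments over the induced and 118000000 over the non-induced group, an approximate figure.

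PU.1 binds DNA directly, so the stretch upstream of the transcription start is shown for Cxcr4 and S1pr4, the pair of receptor genes that rose, from the RefSeq promoter table (build GRCm38.p6). Of the 10 genes, 7 were matched in it, and Cxcr5, Ccr7 and S1pr1 were not. Each sequence is the 250 bases before the RefSeq start, 5′ to 3′ on the strand of the gene. Capitals mark GGAA, or TTCC where it reads GGAA on the opposite strand.
Cxcr4 (chr1:128592300-128592549, minus strand): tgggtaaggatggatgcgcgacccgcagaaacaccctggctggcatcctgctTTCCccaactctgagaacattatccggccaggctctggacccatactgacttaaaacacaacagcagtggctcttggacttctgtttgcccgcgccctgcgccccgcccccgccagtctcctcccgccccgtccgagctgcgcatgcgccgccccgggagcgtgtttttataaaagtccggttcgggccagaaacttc
S1pr4 (chr10:81500138-81500387, minus strand): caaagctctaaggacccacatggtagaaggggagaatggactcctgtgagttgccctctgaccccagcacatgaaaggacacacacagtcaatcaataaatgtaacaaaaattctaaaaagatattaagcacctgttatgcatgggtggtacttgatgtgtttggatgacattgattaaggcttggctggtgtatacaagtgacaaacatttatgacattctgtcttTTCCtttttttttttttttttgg
The upstream window of Cxcr4 held 1 copy of GGAA over both strands, that of S1pr4 held 1 and that of Ccr2 held 3. The Ccr2 window is not printed, because 233 of its 250 bases lie inside the longer gene model of GENCODE M21. A GGAA match is common, since 93.4% of the 32851 promoter windows of this length held GGAA on at least 1 strand. The longer motif GAGGAA, which contains GGAA and was searched on both strands, stood in 23.3% of windows, and GAGGAAGT, which contains both, in 2.44%. Neither longer motif was in the windows of Cxcr4, S1pr4 and Ccr2. Among the genes that were not tested, GAGGAA was found once each upstream of S1pr3, of Cxcr3 and of 1 of the pair of annotated starts of Ccr6. GAGGAAGT was found once, upstream of the RefSeq start of Cxcr3, where 122 of the 250 bases lie inside the GENCODE M21 gene model. These are letter matches in 1 window, not measured binding.

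Induced cells had more Cxcr4 and S1pr4 mRNA and less Ccr7, Cxcr5 and Ccr2 mRNA than non-induced cells. The authors had tested 5 of the 10 genes, and all 5 were called, 2 higher and 3 lower. Over all 10657 tested genes 35.1% were called, 19.0% higher and 16.1% lower. The genes were picked with earlier results of these data known, and a gene near 0 in both groups could not enter the test, so the 5 called do not stand for all 10. The other 5 genes had not been tested, and their highest deposited value in either group was 0.0720 FPKM. In RNA from whole cultures, fewer cells with a transcript and less of it per cell cannot be told apart.

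**Figure D1:**
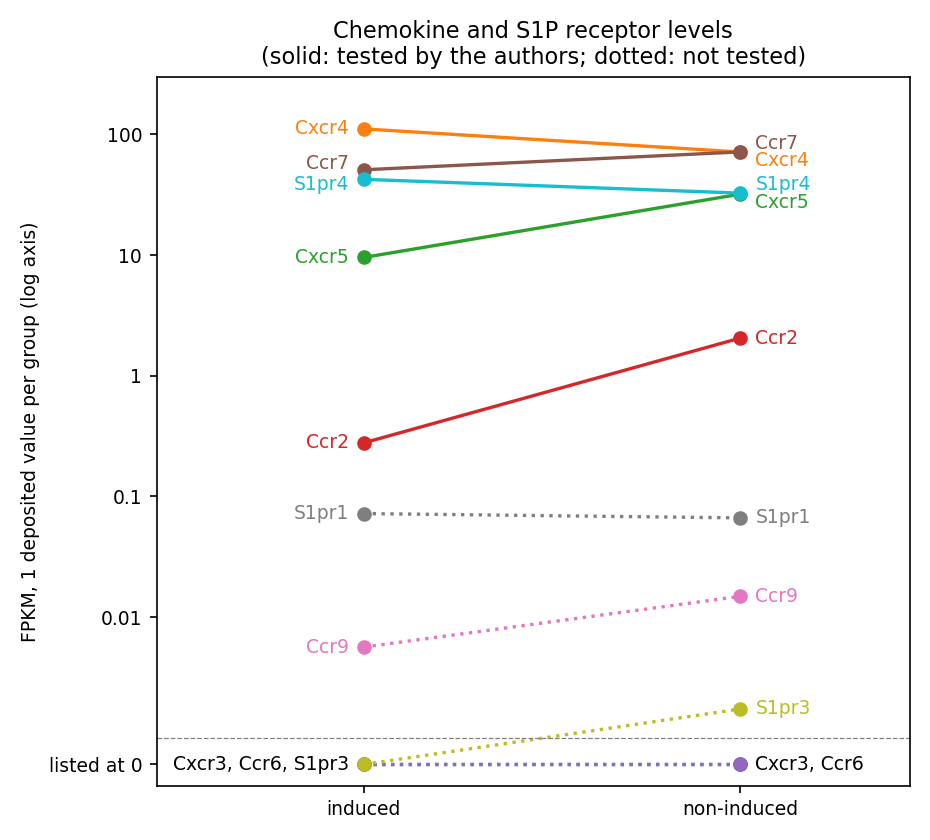
Deposited FPKM of the 10 receptor genes (log axis), with induced cells on the left and non-induced cells on the right; each point is 1 group value, solid lines join tested genes, dotted lines join untested ones, and the lowest level stands for genes listed at 0. Cxcr4 and Ccr7 stood apart at 111 and 50.9 FPKM in induced cells and were level at 71.5 and 71.6 FPKM in non-induced cells.

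Cxcr4, the CXCL12 receptor, was the most abundant of the receptor mRNAs in induced cells. It stood at 111 FPKM in induced and 71.5 FPKM in non-induced cells, per the authors' deposited table, a ratio of 1.55. The log2 change was 0.64 with an implied SE of 0.13 (q = 0.000287, authors' deposited table). Of all tested genes, 89.6% had a smaller absolute log2 change, and its induced level exceeded that of 96.5% of all rows. Cxcr4 is a protein-coding gene on the minus strand of chromosome 1 at 128588199 to 128592293 (mm10, GENCODE M21), with 2 annotated transcripts of 2 exons each.

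Ccr7, the receptor for CCL19 and CCL21, fell to 50.9 FPKM in induced cells, against 71.6 FPKM in non-induced cells, per the authors' deposited table. That is a ratio of 0.711 and a log2 change of -0.49 with an implied SE of 0.13 (q = 0.000287, authors' deposited table). It was the runner-up of the 10 in induced cells by FPKM, a unit scaled by transcript length. Ccr7 has 3 exons on the minus strand of chromosome 11 at 99144196 to 99155077, and no other annotated gene overlaps it.

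Cxcr5, the CXCL13 receptor of B cell follicles, had a larger fall. The authors' deposited table listed 9.56 FPKM in induced and 32.0 FPKM in non-induced cells, 3.35-fold lower in induced cells. The log2 change was -1.74 with an implied SE of 0.14 (q = 0.000287, authors' deposited table). Ranked from the most negative log2 change, it was number 47 of the 10628 tested genes with a finite change. Called changes of at least 2-fold in either direction made up 4.06% of tested genes, and Cxcr5 and Ccr2 were among them. The annotated gene runs from 44511787 to 44561877 on the minus strand of chromosome 9. Its longer transcripts overlap Bcl9l on the opposite strand. The row used by the authors ended at 44526421 and held no other gene.

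Ccr2, the CCL2 receptor known for the exit of monocytes from bone marrow, had the largest relative change of the 5 tested genes and a low level. It was listed at 0.278 FPKM in induced and 2.05 FPKM in non-induced cells, per the authors' deposited table, 7.39-fold lower in induced cells. The log2 change was -2.89 with an implied SE of 0.26, the widest of the 5 (q = 0.000287, authors' deposited table). It was number 8 from the most negative end of the tested genes. With 1 FPKM added to both values its log2 change was -1.26. Ccr2 is on chromosome 9, plus strand, from 124101950 to 124113557, and has 4 annotated transcripts.

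The tested markers from a joint list for macrophages and granulocytes went the other way. Of 11 such markers 4 had been tested, and all 4 were higher, Lyz2 at 15.2 FPKM in induced and 0.361 FPKM in non-induced cells, per the authors' deposited table. Over all tested genes 19.0% were higher. A marker near 0 in non-induced cells could enter the test through its value in induced cells alone. Cd14 was such a case, at 0.995 FPKM in induced and 0 in non-induced cells, so the 4 do not stand for the list. Summed over the 11, the level was 24.3 FPKM in induced and 2.28 FPKM in non-induced cells, and S100a8, S100a9, Elane and Ctsg were listed at 0 in both groups. The T cell list summed to 14.6 FPKM in induced and 35.1 FPKM in non-induced cells, nearly all of it Cd28 (14.2 and 34.6 FPKM, authors' deposited table), with Cd3e and Cd4 listed at 0 in both. NK cell markers summed to 0.0347 and 0.0464 FPKM in induced and non-induced cells, and the 5 stromal markers were listed at 0 in both. Of 5 markers of mature B cells, the cells in which CXCR5 and CCR7 are best known, 2 had been tested and both were lower. Over all tested genes 16.1% were lower. Cd22 stood at 15.2 FPKM in induced and 45.0 FPKM in non-induced cells (log2 change -1.57), per the authors' deposited table. Cr2 was low, at 0.290 FPKM in induced and 0.424 FPKM in non-induced cells (log2 change -0.55), per the same table. Ms4a1, Fcer2a and Ciita were not tested. Their values were higher in induced cells but near 0, at most 0.0481 FPKM. That list summed to 15.6 FPKM in induced and 45.5 FPKM in non-induced cells, nearly all of it Cd22. Of 13 pro-B cell markers 12 had been tested, and 8 were higher and 0 lower, also at Cuffdiff's unadjusted p under 0.05. Over all tested genes 19.0% were higher and 16.1% lower. The untested marker, Kit, was listed at 0 in both groups. The pro-B list summed to 5112 FPKM in induced and 3653 FPKM in non-induced cells. Among its markers Il7r, the interleukin 7 receptor, had a log2 change of 1.71 and Igll1, a surrogate light chain gene, one of 1.01 in the authors' deposited table. Plasmacytoid dendritic cells are known to carry CCR9; of 5 such markers 4 had been tested and 2 were higher, and the list summed to 107 FPKM in induced and 96.7 FPKM in non-induced cells. Most of that sum was Bst2, at 87.8 FPKM in induced and 83.7 FPKM in non-induced cells, per the authors' deposited table. Neither Bst2 nor Tcf4 was called, and Klk1 was listed at 0 in both groups. The 2 higher were Siglech and Cox6a2. Siglech stood at 3.98 FPKM in induced and 0.0389 FPKM in non-induced cells, per the authors' deposited table. Cox6a2, which shares its locus with another row, had a log2 change of 1.57 there. The part of these markers in the receptor changes was not tested.

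S1pr4, an S1P receptor found mainly on blood and lymphoid cells, was the other gene that rose. It stood at 42.4 FPKM in induced and 32.6 FPKM in non-induced cells, per the authors' deposited table, a ratio of 1.30. The log2 change of 0.38 had an implied SE of 0.13 (q = 0.000287, authors' deposited table). This was the smallest change among the 5 tested genes, and 78.6% of all tested genes changed by less. S1pr4 is a gene of 1 exon on the minus strand of chromosome 10 at 81497747 to 81500132.

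**Figure D2:**
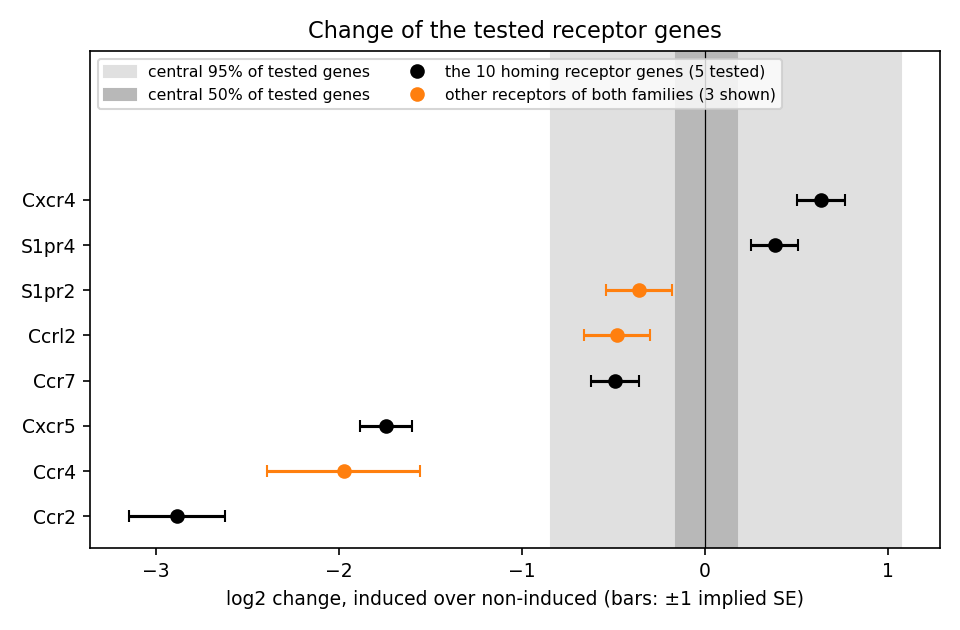
Log2 change of induced over non-induced cells for 8 tested receptor genes, with bars of 1 implied SE; black points are the homing receptor genes described here and orange points other receptors of both families. Grey bands are the central 50% and 95% of tested genes; Ccr2, Cxcr5 and Ccr4 lie below the wider band, whose lower end is -0.84, and 2 of the 8, Cxcr4 and S1pr4, lie above 0.

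All 5 tested genes shared the smallest q-value in the table, 0.000287, because 1855 tested rows shared the smallest p-value of 5e-05. The q-values therefore give no order among them.

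S1pr1, the receptor that draws lymphocytes out of tissues, was close to 0 in both groups and was not tested. The authors' deposited table listed 0.0720 FPKM in induced and 0.0663 FPKM in non-induced cells. That corresponds to about 26.7 and 23.8 fragments over all libraries of the induced and the non-induced group. S1pr3, a more widely expressed S1P receptor, was listed at 0 in induced cells and at 0.00173 FPKM in non-induced cells, per the authors' deposited table, or about 0.911 of a fragment. By deposited FPKM, S1pr4 was thus by far the highest of the 3 S1P receptor genes, at 42.4 and 32.6 FPKM in induced and non-induced cells. A low deposited value can be a failed estimate, so the values of S1pr1 and S1pr3 do not show that their mRNA was absent.

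The remaining chemokine receptors were at or near 0. Ccr9, the CCL25 receptor of thymic and gut-homing lymphocytes, was listed at 0.00563 FPKM in induced and 0.0148 FPKM in non-induced cells, per the authors' deposited table. Cxcr3, which binds CXCL9, CXCL10 and CXCL11 and is known from effector T cells, was listed at 0 in both groups. Ccr6, the CCL20 receptor, was listed at 0 in both groups as well. A listed 0 in this table can be a failed estimate, so it does not show absence.

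By FPKM the order in induced cells was Cxcr4, Ccr7, S1pr4, Cxcr5, Ccr2, S1pr1 and Ccr9. In non-induced cells it was Ccr7, Cxcr4, S1pr4, Cxcr5, Ccr2, S1pr1, Ccr9 and S1pr3. Ccr7 and Cxcr4 (71.6 and 71.5 FPKM), and S1pr4 and Cxcr5 (32.6 and 32.0 FPKM), were nearly level in non-induced cells. Without values per library, no statement can be made on whether neighbours in either order differ beyond their spread.

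The summed level of the 10 genes was 214 FPKM in induced and 209.8 FPKM in non-induced cells, a ratio of 1.02, while its make-up differed. Cxcr4 made up 51.8% of the sum in induced and 34.1% in non-induced cells. Ccr7 made up 23.8% and 34.1%, S1pr4 19.8% and 15.5%, and Cxcr5 4.46% and 15.3% in induced and non-induced cells. These shares are sums of the deposited group values and carry no test.

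**Figure D3:**
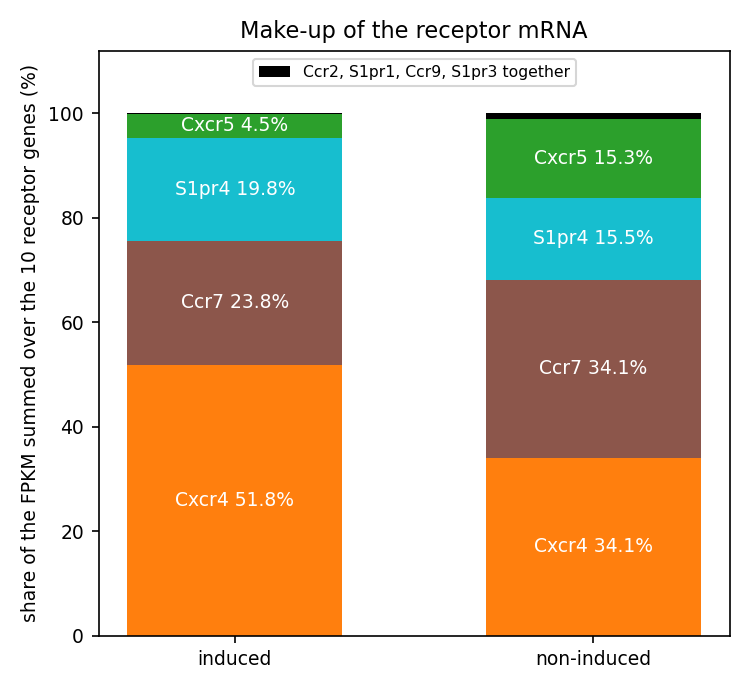
Share of the FPKM summed over the 10 receptor genes, in percent, for induced cells on the left and non-induced cells on the right. Cxcr4 fills 51.8% of the induced bar and 34.1% of the non-induced bar, and Cxcr5 4.46% and 15.3%.

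The other members of both receptor families pointed mostly downwards where they could be tested. Of 17 other chemokine receptor genes 3 had been tested and all 3 were lower, and of the other 2 S1P receptor genes 1 had been tested and was lower. Among tested genes whose higher group value was under 5 FPKM, as for these 4, 17.1% were lower and 21.4% higher. Ccrl2, an atypical receptor that binds chemerin, stood at 1.62 FPKM in induced and 2.26 FPKM in non-induced cells, per the authors' deposited table (log2 change -0.48, implied SE 0.18). S1pr2, which restrains migration, stood at 1.27 FPKM in induced and 1.63 FPKM in non-induced cells, per the authors' deposited table (log2 change -0.36, implied SE 0.18, q = 0.00749). Its call was lost when the p-value was taken from the test statistic as a normal deviate.

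Ccr4 is named here after its values were seen, since it was under 1 FPKM. Ccr4, the CCL17 and CCL22 receptor, was listed at 0.125 FPKM in induced and 0.493 FPKM in non-induced cells, per the authors' deposited table (log2 change -1.98, implied SE 0.42). Over both families, 29 genes in all, 9 had been tested, with 2 higher and 7 lower, and 8 were listed at 0 in both groups. A gene at this level could enter the test through its value in non-induced cells alone, so the count over tested genes is not a count over the families.

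Ligands of the receptors were mostly absent from the tested genes. Of 13 ligand genes 12 were in the table and 2 had been tested. Cxcl10, an interferon-inducible ligand of CXCR3, was the 1 that rose, to 0.584 FPKM in induced cells, against 0.135 FPKM in non-induced cells, per the authors' deposited table (log2 change 2.12, implied SE 0.71, q = 0.00321). It is named after its values were seen and shares its locus with other rows. Ccl25, the CCR9 ligand, stood at 4.31 FPKM in induced and 4.38 FPKM in non-induced cells, per the authors' deposited table, which gave no call for it. Cxcl12 and Cxcl13, the ligands of CXCR4 and CXCR5, were listed at 0 in both groups.

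Genes of S1P synthesis, export and breakdown had 4 of 9 tested members higher and 1 lower, against 19.0% and 16.1% of all tested genes. The sphingosine kinase genes Sphk1 and Sphk2, named after their values were seen, were not among those called. Sphk1 was listed at 0 in both groups. Sphk2, at a shared locus, stood at 17.7 FPKM in induced and 18.5 FPKM in non-induced cells, per the authors' deposited table. Asah1, the acid ceramidase that releases sphingosine, rose to 64.6 FPKM in induced cells, against 35.0 FPKM in non-induced cells, per the authors' deposited table (log2 change 0.88). Sgpl1, the lyase that degrades S1P irreversibly, rose to 23.1 FPKM in induced cells, against 17.2 FPKM in non-induced cells, per the authors' deposited table (log2 change 0.42). Sgpp1, an S1P phosphatase, had a log2 change of 0.24 and Ppap2c, a lipid phosphate phosphatase that shares its locus with another row, one of -0.80 in the authors' deposited table. When p-values came from the test statistic 2 members were higher in place of 4. Sgpp1 lost its call, and Acer3 had no usable statistic and dropped out. Acer3, named after its values were seen, stood at 0.335 FPKM in induced and 0 in non-induced cells, per the authors' deposited table.

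The G proteins that relay the receptors' signal were higher or not called. Of 13 tested subunit genes 8 were higher (61.5%) and 0 lower, against 19.0% and 16.1% of all tested genes. Their median log2 change was 0.30, against -0.01 over all tested genes. Gna15, a Gq family alpha subunit of blood cells, stood at 35.2 FPKM in induced and 17.7 FPKM in non-induced cells, per the authors' deposited table (log2 change 1.00, implied SE 0.13). Gng2, a gamma subunit, had a log2 change of 0.96, Gna11 one of 0.46 and Gna12 one of 0.46 in the authors' deposited table. Gnai2, the abundant inhibitory subunit through which chemokine receptors mainly act, is added after its values were seen. It stood at 272 FPKM in induced and 221 FPKM in non-induced cells, per the authors' deposited table (log2 change 0.30, implied SE 0.13, q = 0.0008). At Cuffdiff's unadjusted p under 0.05 the lower count was 0 as well, and with normal p-values 4 subunits were higher in place of 8. Calls over all tested genes fell from 3744 to 1612 with normal p-values.

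Genes that dampen the receptors or their G proteins (RGS proteins, receptor kinases and arrestins) had 4 of 10 tested members higher and 1 lower. Among all tested genes 19.0% were higher and 16.1% lower. Arrb2, a beta-arrestin that binds phosphorylated receptors, rose to 40.1 FPKM in induced cells, against 25.8 FPKM in non-induced cells, per the authors' deposited table (log2 change 0.64). Its locus is shared with another row. Rgs2 (log2 change 0.49), Adrbk1 (0.35), which encodes the receptor kinase GRK2, and Rgs19 (0.24) also rose in the authors' deposited table. RGS proteins speed up the hydrolysis of GTP by alpha subunits. The 1 lower member was Rgs1, named after its values were seen, at 0.0772 FPKM in induced and 0.369 FPKM in non-induced cells, per the authors' deposited table (log2 change -2.26). With normal p-values Adrbk1 and Rgs19 lost their calls.

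Downstream signalling towards migration had 10 of 21 tested members higher (47.6%) and 0 lower, against 19.0% and 16.1% of all tested genes. With normal p-values 6 members were higher, while calls over all tested genes fell from 3744 to 1612. At Cuffdiff's unadjusted p under 0.05, 2 members were lower. Plcb2, a phospholipase C activated by G proteins, rose to 9.22 FPKM in induced cells, against 3.92 FPKM in non-induced cells, per the authors' deposited table (log2 change 1.24, implied SE 0.16). Pik3r5, the p101 subunit of PI3K gamma, had a log2 change of 0.89 in the authors' deposited table. Prex1, an exchange factor for Rac, had one of 0.79 and Rac2, the Rac GTPase of blood cells, one of 0.73 there. Dock2, a Rac activator that lymphocytes need for chemotaxis, is added after its values were seen. It stood at 56.0 FPKM in induced and 51.9 FPKM in non-induced cells, per the authors' deposited table, which gave no call for it (q = 0.34). Prex1 and Dock2 each share a locus with another row.

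Adhesion genes of homing and known regulators of S1P receptors had 6 of 11 tested members higher (54.5%) and 2 lower (18.2%). The shares of all tested genes were 19.0% higher and 16.1% lower, so the lower share was close to that of all genes. Itga4, a chain of the VLA-4 integrin, rose to 29.0 FPKM in induced cells, against 13.1 FPKM in non-induced cells, per the authors' deposited table (log2 change 1.15). Its locus is shared with another row. Selplg, the selectin ligand PSGL-1, and Cd44, a hyaluronan receptor, had log2 changes of 0.66 and 0.64 in the authors' deposited table. The 2 lower members, named after their values were seen, were Itgb1 (log2 change -0.38) and Cd69 (-0.42) in the authors' deposited table. Cd69 encodes a protein that removes S1PR1 from the cell surface, and it stood at 77.0 FPKM in induced and 102.9 FPKM in non-induced cells, per the authors' deposited table. Klf2 and Foxo1, known in lymphocytes for driving S1pr1, are likewise named after their values were seen, and had log2 changes of 0.44 and 0.58 there. S1pr1 itself was not tested.

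**Figure D4:**
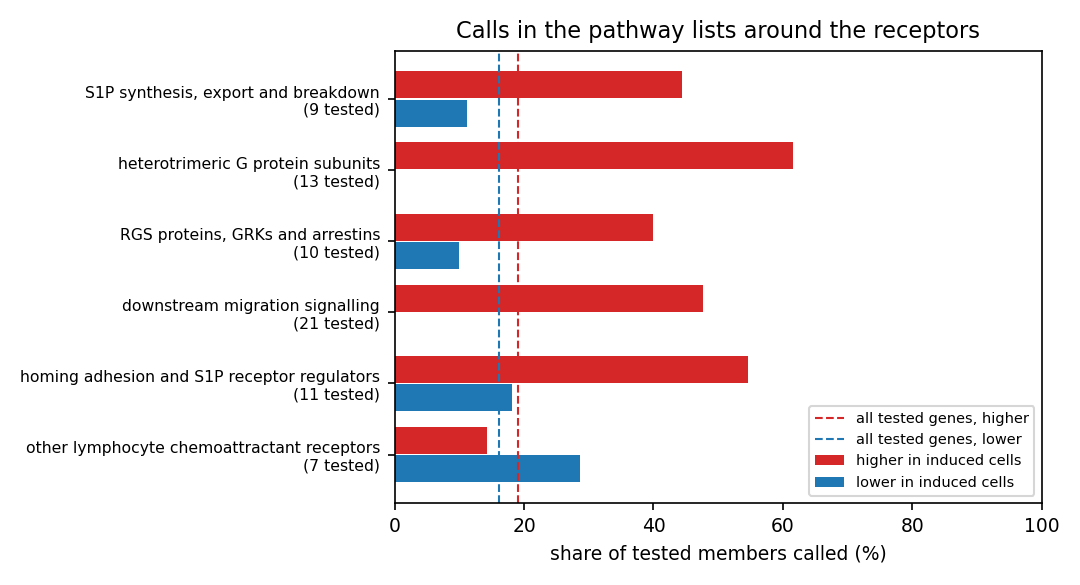
Share of tested members, in percent, that were higher (red) or lower (blue) in induced cells, for the 6 pathway lists with at least 7 tested members; dashed lines mark the shares over all tested genes, 19.0% higher and 16.1% lower. G protein subunits and downstream signalling genes had 0 lower members, and the other chemoattractant receptors had 1 higher and 2 lower of 7.

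The list of other lymphocyte chemoattractant receptors, most of which bind lipids, had 1 of 7 tested members higher and 2 lower. Among all tested genes 19.0% were higher and 16.1% lower, and 7 genes are too few to read these counts as a difference. Cnr2, a cannabinoid receptor of B cells, stood at 1.87 FPKM in induced and 2.64 FPKM in non-induced cells, per the authors' deposited table (log2 change -0.50). P2ry10, a lysophospholipid receptor, had a log2 change of -0.27 in the authors' deposited table, and its call was lost with normal p-values. The 1 higher member, named after its values were seen, was the adenosine receptor gene Adora2a, at 0.757 FPKM in induced and 0.382 FPKM in non-induced cells, per the authors' deposited table. Gpr183, which positions B cells in follicles together with CXCR5, was not tested and was listed at 0.0142 FPKM in induced and 0.0113 FPKM in non-induced cells, per the authors' deposited table.

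With 1 value per group, likeness to another gene could be measured over 2 values only. The tested genes nearest to Ccr2 in log2 FPKM of both groups were Rpl11 (distance 0.30), Shroom3 (0.37) and Tinagl1 (0.51). Rpl11 encodes a ribosomal protein that cells need, yet it was listed at 0.334 FPKM in induced and 2.26 FPKM in non-induced cells, per the authors' deposited table. A low deposited value can therefore be a failed estimate.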

How the data were processed

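Total RNA was isolated on Qiagen columns for strand-specific mRNA libraries, per the labels' protocols. Nothing in the labels says that libraries of 1 group were separate cultures, so any spread between libraries behind the p-values may be technical. The deposited values do not show how far each p-value rests on that spread. The submitters' processing notes name Trim Galore 0.2.8.1, TopHat2 2.0.9, Cufflinks, Cuffdiff 2.1.1 and the mouse build mm10. The annotation is not given in the sources used here, nor is the strand setting.

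The authors deposited 1 FPKM value per gene and group, the log2 of its fold change, a score (the test statistic), and a p-value and q-value, per the file headers. Of the rows, 10657 had been tested and 13135 not, and 1 was marked as having too many fragments. The deposited q-values matched a Benjamini-Hochberg adjustment of their p-values to within 5.15e-07. A locus is common to several rows for 2244 of those tested. Overlapping or near-identical genes can have shared fragments.

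No test was refitted. Positions and transcript lengths came from GENCODE M21 (GRCm38, the same assembly as mm10). Depth was estimated from steps in FPKM times transcript length, at which 64.7% of low values in induced and 69.9% in non-induced cells lay within 0.15 of a whole fragment, against 30% for evenly spread values. This is approximate, and how depth was spread over libraries is unknown. Motifs were counted in the 250 bases upstream of RefSeq starts. Python 3.11.15, pandas 2.3.3, numpy 2.4.6, scipy 1.17.1 and matplotlib 3.10.9 were used, and the adjustment and step estimate were tested on simulated data.

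The 10 genes and the lists were chosen with earlier results of these data known. From each list the called members with the largest absolute log2 change, up to 4 and reaching 1 FPKM in a group, are named, and others are marked where they occur. A few list members enter the counts but are not reported here by name. Alternatives were a q-value under 0.01, normal p-values from the test statistic, a minimum of 1.5-fold, a mean of at least 1 FPKM, leaving out shared loci, pseudocounts of 0.1 and 1 FPKM, and centring on the median of tested genes.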

Additional observations from a re-analysis of the deposited data

How the results depend on the processing

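The calls of the 5 tested receptor genes held at a q-value under 0.01, with p-values taken from the statistic as a normal deviate, over genes with a mean of at least 1 FPKM and without shared loci. With a minimum of 1.5-fold, 3 of the 5 were called, Cxcr4, Cxcr5 and Ccr2, since Ccr7 and S1pr4 changed by less than that. Over all tested genes the count of 3744 fell to 1612 with normal p-values and to 1086 at 1.5-fold. The cause of the first of these was not tested. Pseudocounts and centring on the median of tested genes (-0.01 on the log2 scale) reversed no receptor gene and none of the 24 other genes named by rule. Of those 24, 5 lost their call with normal p-values and 2 at a q-value under 0.01. Without shared loci 20 kept their call, while Ppap2c, Arrb2, Prex1 and Itga4 share a locus and were left out. Tested members of the lists under 1 FPKM have few fragments, and values near 0 limit what can be said of the 5 untested receptor genes. No paired analysis was possible because the deposited table holds 1 value per group, and for the same reason no library could be left out in turn.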

Other observations

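Chemokine genes were looked at as a whole by symbol, a choice made after the data were seen. Of 36 genes with a Ccl, Cxcl, Xcl or Cx3cl symbol, 3 had been tested, 1 was higher and 0 were lower, and 21 were listed at 0 in both groups. The tested gene not named above was Ccl3, at 0.0814 FPKM in induced and 0.302 FPKM in non-induced cells, per the authors' deposited table (log2 change -1.89, implied SE 1.06, q = 0.0614), which Cuffdiff did not call and which was the 1 lower gene at an unadjusted p under 0.05.

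Rows within 50 kb of the changed receptor genes were also listed after the data were seen. S1pr4 lies between Ncln, at 40.5 FPKM in induced and 47.9 FPKM in non-induced cells, and Gna15, and Gna11 follows at a distance of 28.6 kb. Of its 3 tested neighbours 2 were higher, Gna15 and Gna11, and 1 was lower, Ncln (log2 change -0.24, q = 0.0155), in the authors' deposited table. The 1 neighbour of Cxcr5 was Bcl9l, a beta-catenin cofactor gene, at 6.47 FPKM in induced and 9.30 FPKM in non-induced cells, per the authors' deposited table (log2 change -0.52). Cxcr4 and Ccr7 had no row within that distance. What links neighbouring changes was not tested.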
